A study of Arabidopsis thaliana with 16 samples.

Results

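The transcripts described here are 37 of the 32678 loci counted in Arabidopsis thaliana, chosen by locus identifier because their products make, modify or respond to the defence hormone salicylate or serve plant immunity. They were measured by RNA sequencing in roots and leaves of untreated plants aged 25 days that grew on Oil-Dri and received Hoagland solution. All plants carry the pho1-4 mutation in PHO1, which exports phosphate towards the xylem of the root. EXS34 and EXS32 are mutant lines with a transgene for the PHO1 EXS domain joined to GFP, KO is the pho1-4 knockout mutant itself, and Compl is the mutant complemented with the PHO1 gene. No wild type was analysed here, each EXS group is 1 transgenic line, and the sources used here do not name the promoters of the transgenes. Each genotype had 2 libraries per organ, 16 in all, and the labels leave unsaid whether both came from the same plants, so a p-value here reflects the spread between libraries only.

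In plants, salicylate is made mainly from isochorismate. ICS1 makes isochorismate in the plastid, EDS5 exports it, and PBS3 joins it to glutamate, after which salicylate is released. A parallel branch from lysine, with ALD1 and FMO1, makes N-hydroxypipecolate, a mobile signal of systemic resistance. EDS1, PAD4 and SAG101 relay signals of intracellular immune receptors, NPR1 is the coactivator through which salicylate turns on defence genes, and NPR3 and NPR4 are salicylate-binding repressors. SARD1 and CBP60g switch on ICS1, CAMTA3 holds such genes down, and the secreted proteins PR1, PR2 and PR5 are the classical outputs in leaves.

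The 250 bases before the annotated start of EDS5, PBS3 and WRKY70 are shown because EDS5 and PBS3 are the synthesis members called in roots, and WRKY70 has the highest level per exon length of the WRKY members in leaves. They were read 5′ to 3′ on the strand of the gene from the RefSeq assembly TAIR10.1, at chr4:18185187-18185436 (forward strand) for EDS5, chr5:4267206-4267455 (forward strand) for PBS3 and chr3:20910624-20910873 (reverse strand) for WRKY70. Capitals mark TTGAC, the core of the W-box bound by WRKY proteins, and TGACG, the core of sites bound by TGA factors, on either strand. The stretch CGTCAA in the WRKY70 window is a TTGAC and a TGACG on the reverse strand that overlap.
EDS5: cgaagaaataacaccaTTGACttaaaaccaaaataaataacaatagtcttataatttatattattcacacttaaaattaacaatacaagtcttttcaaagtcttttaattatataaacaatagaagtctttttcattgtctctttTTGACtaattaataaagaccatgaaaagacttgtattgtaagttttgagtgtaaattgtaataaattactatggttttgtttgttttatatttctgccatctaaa
PBS3: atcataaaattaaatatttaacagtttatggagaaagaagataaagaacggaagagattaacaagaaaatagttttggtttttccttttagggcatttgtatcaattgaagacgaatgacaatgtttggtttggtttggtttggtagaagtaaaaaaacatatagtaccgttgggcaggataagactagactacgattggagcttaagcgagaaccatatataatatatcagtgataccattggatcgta
WRKY70: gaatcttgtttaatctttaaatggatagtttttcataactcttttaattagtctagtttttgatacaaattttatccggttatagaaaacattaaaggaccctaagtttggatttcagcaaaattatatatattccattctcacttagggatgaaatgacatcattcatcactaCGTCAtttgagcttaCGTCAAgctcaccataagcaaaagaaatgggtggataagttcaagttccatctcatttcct
TTGAC was present on either strand in 18 of the 37 member windows (48.6%), against 45.0% of 27997 windows of all genes. TGACG was present in 10 member windows (27.0%), against 18.6% of all windows, and CGCG, the core of the site bound by CAMTA factors, in 5 (13.5%), against 10.08% of all. Of the 27 TTGAC and 16 TGACG copies in member windows, 4 pairs overlapped as TTGACG. The PBS3 window holds none of the 3 motifs, which says only that these letters are not in these 250 bases.

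The library labels and the names of the deposited leaf files give different genotypes. By file name the leaf libraries labelled EXS34 are pho1-4, those labelled EXS32 are EXS34, those labelled KO are Compl, and those labelled Compl are EXS32. Leaf groups are therefore called by their labels, which may not be their genotypes, and each leaf comparison is also given by file names. The phosphate starvation transcript IPS1 (AT3G09922) had 179.6 and 95.6 CPM in libraries labelled EXS34, 9.51 and 14.5 CPM in those labelled EXS32, 1.11 and 0.874 CPM in those labelled KO, and 35.5 and 38.4 CPM in those labelled Compl, and in roots, where labels and file names give 1 genotype, it had 24.5 and 70.3 CPM in EXS34, 43.4 and 49.6 CPM in EXS32, 42.9 and 69.1 CPM in KO, and 3.84 and 1.01 CPM in Compl. In leaves all 9 phosphate starvation transcripts on a list were higher in leaves labelled EXS34 than in each other labelled group. IPS1 was higher in KO than in Compl in roots, and also in leaves named by their files. By labels it was lower in KO leaves than in Compl leaves. Which naming is right was not tested. PHO1 itself does not check the labels, since its reads can come from the mutant transcript or a transgene. The root libraries held between 20139794 and 31405117 gene reads and the leaf libraries between 9465995 and 15530134, so low transcripts are less precise in leaves. The summed level of 5 leaf markers was 57.4 to 251 CPM in roots and 51041 to 62558 CPM in leaves, and that of 5 root markers was 1614 to 4425 CPM in roots and 77.2 to 185 CPM in leaves. Among root libraries the first principal component took 40.9% of the variance and set Compl replicate 1 (68.3) and Compl replicate 2 (31.8) beyond the remaining 6 (-44.7 to 8.89).

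Levels are in CPM, the usual depth-scaled read count, with library sizes adjusted over all 16 libraries by TMM, a factor that aligns most genes between libraries. Differences are log2 fold changes with their standard error, and a change is called where the Benjamini-Hochberg adjusted p of the quasi-likelihood test of edgeR over all genes is under 0.05.

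The salicylate and immune transcripts were mostly lower in roots than in leaves. Of the 37, 29 were lower in roots and 3 higher. Of all 21351 genes tested 81.6% were called, 38.4% lower and 43.1% higher in roots, so being called is the background state here. The median log2 fold change of the members was -1.25, against 0.06 for all genes. In such whole organs, fewer cells of a type and less RNA per cell cannot be told apart. This comparison pools the genotypes and does not depend on the genotype of a leaf library. In 11 of the 37 (29.7%) the root and leaf libraries did not overlap, against 50.7% of all genes tested. UGT76B1 had all 8 root libraries higher, and PR1, PR2, PR5, PNP-A, NPR3, SARD1, WRKY70, WRKY18, WRKY60 and CYP71A13 had all 8 lower.

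**Figure D1:**
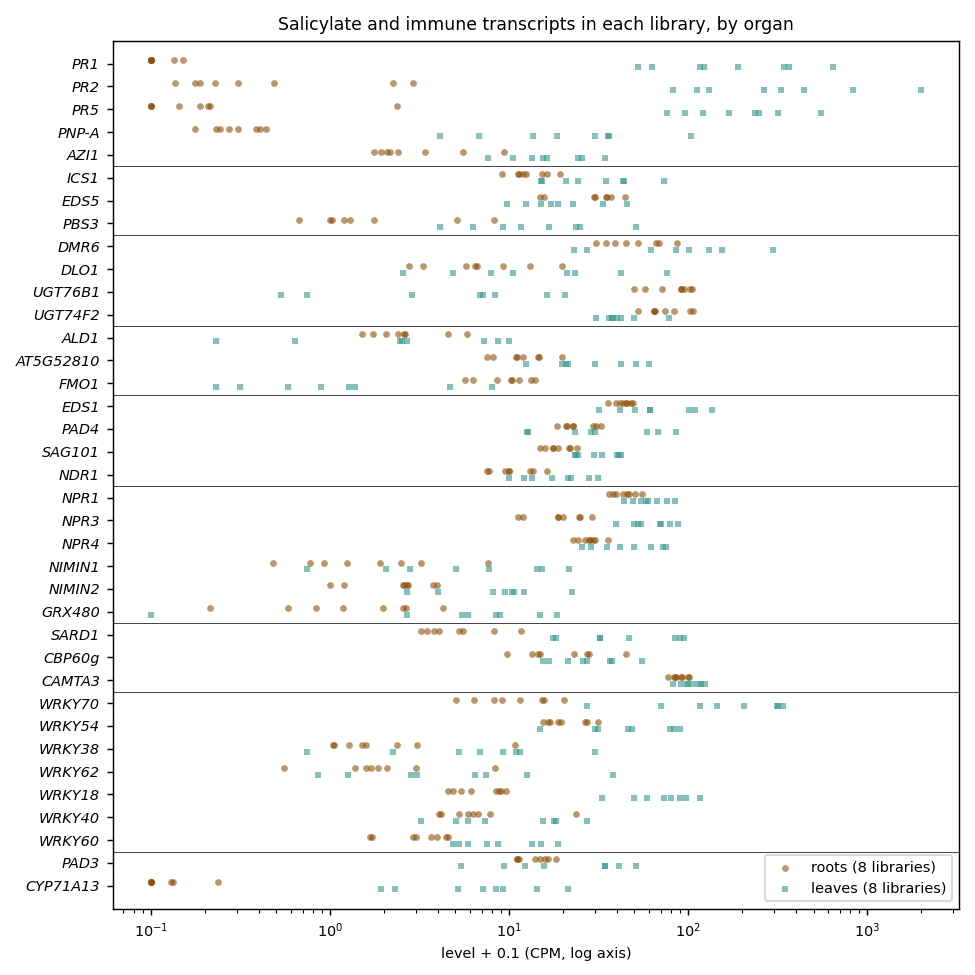
Level of each of the 37 members in each library, on a log axis in CPM after adding 0.1, with 8 root libraries as circles above 8 leaf libraries as squares in each row and lines between groups of role. PR1, PR5 and CYP71A13 have root libraries with 0 reads at the left edge, while UGT76B1 is the member with all root libraries to the right of the leaf libraries.

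The secreted outputs were nearly silent in roots. PR1, the marker protein of salicylate responses, had 0, 0, 0, 1, 0, 2, 0, 0 reads in the 8 root libraries (EXS34, EXS32, KO and Compl, replicates 1 and 2 of each) and 344 and 188 CPM in libraries labelled EXS34, 62.2 and 51.9 CPM in those labelled EXS32, 363 and 641 CPM in those labelled KO, and 122 and 116 CPM in those labelled Compl. PR2, a glucanase, had 0.0355 and 0.127 CPM in EXS34, 0.0752 and 0.205 CPM in EXS32, 0.0866 and 2.81 CPM in KO, and 0.388 and 2.14 CPM in Compl. In leaves PR2 had 1989 and 825 CPM in libraries labelled EXS34, 81.6 and 130.5 CPM in those labelled EXS32, 331 and 443 CPM in those labelled KO, and 264 and 112 CPM in those labelled Compl. PR5, a thaumatin-like protein, had 3, 0, 0, 0, 3, 88, 1, 3 reads in the root libraries in the same order, and 550.5 and 236 CPM in libraries labelled EXS34, 96.0 and 121 CPM in those labelled EXS32, 248 and 318 CPM in those labelled KO, and 168 and 75.5 CPM in those labelled Compl. Root KO replicate 2 and Compl replicate 2 stood above the other root libraries in PR2, and KO replicate 2 alone did in PR5. The natriuretic peptide PNP-A ranged from 0.0752 to 0.338 CPM with a median of 0.189 in roots, and 3.98 to 104 CPM with a median of 24.3 in leaves. AZI1, a lipid transfer protein of systemic priming, ranged from 1.65 to 9.27 CPM with a median of 2.18 in roots, and 7.51 to 34.3 CPM with a median of 15.7 in leaves (log2 fold change -2.54 ± 0.19, adjusted p = 7.64e-08). CYP71A13, an enzyme of the phytoalexin camalexin, had 0, 1, 0, 4, 1, 0, 0, 0 reads in the root libraries and 14.2 and 5.06 CPM in libraries labelled EXS34, 7.05 and 1.83 CPM in those labelled EXS32, 21.3 and 9.08 CPM in those labelled KO, and 8.34 and 2.19 CPM in those labelled Compl. Reads that also aligned to its near relative CYP71A12 were dropped, which can lower these values. PAD3, which completes camalexin, was lower in roots by a small amount (log2 fold change -0.62 ± 0.25, adjusted p = 0.0351), a call lost in 14 of 21 other settings.

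Among the regulators, WRKY70 ranged from 4.95 to 20.2 CPM with a median of 10.2 in roots, and 27.0 to 336 CPM with a median of 174 in leaves (log2 fold change -3.89 ± 0.26, adjusted p = 4.02e-08). WRKY18 was lower in roots too (-3.37 ± 0.16, adjusted p = 1.09e-09). SARD1 (-3.16 ± 0.30, adjusted p = 8.77e-07) was lower in roots, while its partner CBP60g was not called (-0.47 ± 0.21, adjusted p = 0.0575). NPR3 (-1.70 ± 0.12, adjusted p = 3.66e-08) and NPR4 (-0.71 ± 0.10, adjusted p = 3.62e-05) were lower in roots. NPR1 ranged from 35.7 to 55.3 CPM with a median of 44.1 in roots, and 43.3 to 84.3 CPM with a median of 58.9 in leaves. Its log2 fold change of -0.47 ± 0.09 and that of CAMTA3 (-0.22 ± 0.05) turned to 0.093 and 0.34 when library size alone was used, a scaling that moved the median of all genes to 0.62. Library size alone also ended the calls of NPR4 (adjusted p = 0.175) and EDS1 (adjusted p = 0.531), which kept their direction. EDS1 ranged from 35.5 to 48.8 CPM with a median of 43.9 in roots, and 31.7 to 136 CPM with a median of 61.2 in leaves (-0.67 ± 0.16, adjusted p = 0.00223). PAD4 ranged from 18.3 to 32.2 CPM with a median of 22.5 in roots, and 12.5 to 85.2 CPM with a median of 29.3 in leaves and was not called (-0.50 ± 0.23, adjusted p = 0.0671).

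The members that were higher in roots belong to salicylate turnover and the pipecolate branch, but other members of both were lower in roots. In turnover these were DLO1 (log2 fold change -1.21 ± 0.31, adjusted p = 0.00373) and DMR6 (-0.86 ± 0.28, adjusted p = 0.0148). In the pipecolate branch it was AT5G52810 (-1.32 ± 0.17, adjusted p = 1.33e-05). UGT76B1, a glucosyltransferase that acts on salicylate and N-hydroxypipecolate, ranged from 49.6 to 105 CPM with a median of 90.6 in roots, and 0.430 to 20.4 CPM with a median of 6.89 in leaves (log2 fold change 3.53 ± 0.43, adjusted p = 9.27e-06). UGT74F2, which makes the glucose ester of salicylate, was higher in roots by a smaller amount (0.82 ± 0.12, adjusted p = 4.95e-05). FMO1, the last enzyme of N-hydroxypipecolate synthesis, ranged from 5.56 to 13.8 CPM with a median of 10.2 in roots, and 0.129 to 7.86 CPM with a median of 0.980 in leaves (2.60 ± 0.48, adjusted p = 0.000334). ALD1, the aminotransferase of that branch, was low in both organs and not called (-0.22 ± 0.46, adjusted p = 0.667). In synthesis, PBS3 (-3.23 ± 0.36, adjusted p = 3.81e-06) and ICS1 (-1.25 ± 0.24, adjusted p = 0.000405) were lower in roots, whereas EDS5 was not called (0.47 ± 0.20, adjusted p = 0.0511). Per kilobase of annotated exon the highest mean levels in roots were 47.8 CPM per kilobase for UGT76B1, 43.8 for UGT74F2, 35.6 for DMR6 and 21.7 for CAMTA3. In leaves they were 353 for PR2, 262 for PR1, 207 for PR5 and 129.6 for WRKY70 on the same scale.

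Within roots, 33 of the 37 members passed the filter on low counts; PR1, PR5, PNP-A and CYP71A13 did not. In roots of EXS32 against Compl, 10 members were lower and none higher, 30.3% of the 33, while 7.27% of all 20597 genes were lower and 5.10% higher. The median log2 fold change was -0.84 for the members and -0.02 for all genes. In 22 of the 33 (66.7%) both EXS32 libraries lay under both Compl libraries, against 30.4% of all genes tested, and in 5 both lay above, against 29.8%. The 10 are PBS3 and EDS5 in synthesis, DLO1, DMR6 and UGT76B1 in turnover, AT5G52810 and FMO1 in the pipecolate branch, NPR3 and NIMIN2 in the NPR group, and WRKY60. Without EXS32 replicate 1 or replicate 2 the count was 1, EDS5, and with the DESeq2 test it was 17, with 16.5% of all genes called.

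In synthesis, EDS5 (AT4G39030) had 36.9 and 34.7 CPM in EXS34, 14.8 and 15.5 CPM in EXS32, 30.0 and 29.7 CPM in KO, and 44.3 and 34.8 CPM in Compl. Both EXS32 libraries lay below the other 6, with the KO libraries next, and the log2 fold change of EXS32 against Compl was -1.39 ± 0.13, adjusted p = 0.00286. EDS5 was also higher in EXS34 than in EXS32 (1.24 ± 0.12, adjusted p = 0.0221). The annotated EDS5 locus overlaps AT4G39040 on the opposite strand, and the strand setting of the counts is not given in the sources used here, so its level is uncertain. PBS3 (AT5G13320) had 0.922 and 0.571 CPM in EXS34, 0.902 and 1.19 CPM in EXS32, 1.10 and 1.66 CPM in KO, and 4.999 and 8.15 CPM in Compl. The Compl libraries were above the other 6, with a log2 fold change of -2.66 ± 0.39, adjusted p = 0.00954 for EXS32 against Compl. ICS1 had 9.01 and 16.1 CPM in EXS34, 11.1 and 12.3 CPM in EXS32, 11.8 and 11.3 CPM in KO, and 19.1 and 15.2 CPM in Compl, was not called in roots, and had its highest level in Compl replicate 1.

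In turnover, the salicylate hydroxylase DLO1 (AT4G10500) had 6.49 and 5.62 CPM in EXS34, 2.67 and 3.20 CPM in EXS32, 9.12 and 6.36 CPM in KO, and 13.0 and 19.6 CPM in Compl. EXS32 was lowest and Compl highest, without overlap (log2 fold change -2.48 ± 0.27, adjusted p = 0.00465). The other hydroxylase of this list, DMR6 (AT5G24530), had 38.6 and 30.4 CPM in EXS34, 34.3 and 44.6 CPM in EXS32, 66.0 and 52.3 CPM in KO, and 85.9 and 68.7 CPM in Compl. The EXS32 and EXS34 libraries lay below the KO and Compl libraries (-0.98 ± 0.19, adjusted p = 0.0204 for EXS32 against Compl). UGT76B1 had 94.9 and 90.4 CPM in EXS34, 49.6 and 57.4 CPM in EXS32, 105 and 71.3 CPM in KO, and 102 and 90.8 CPM in Compl. The 2 EXS32 libraries were the lowest of the 8 (-0.86 ± 0.18, adjusted p = 0.0237). UGT74F2 was not called in roots.

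**Figure D2:**
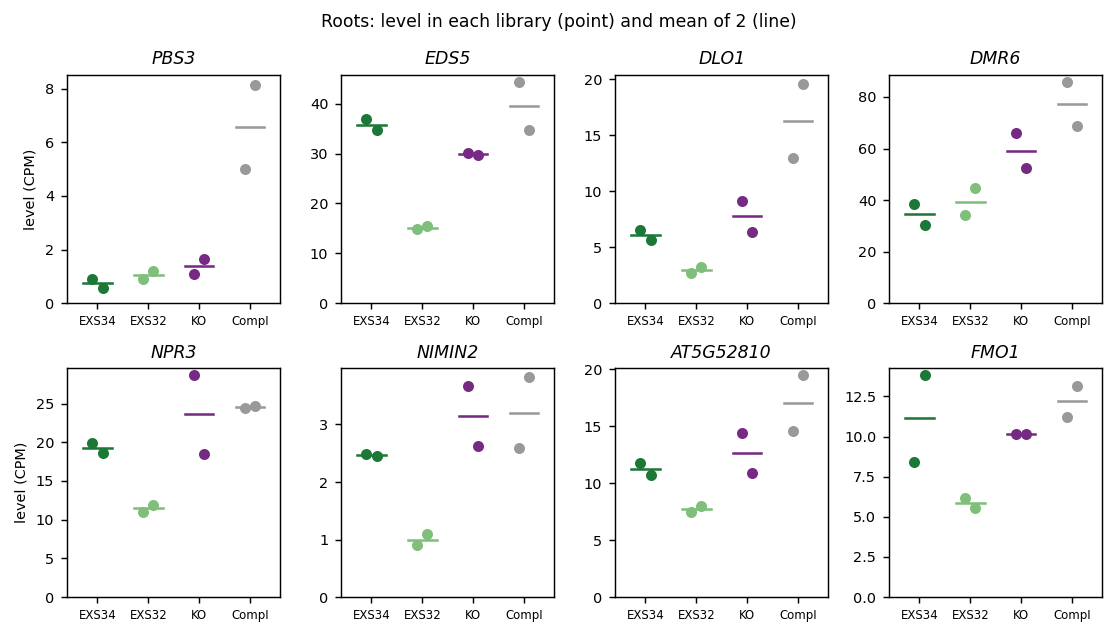
Level in CPM of 8 members in each root library, with points for the 2 replicates, a line for their mean, and the groups EXS34, EXS32, KO and Compl along each axis. PBS3 stands at 4.999 and 8.15 CPM in Compl and under 2 CPM elsewhere, and EDS5 is lowest in EXS32, at 14.8 and 15.5 CPM.

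In the pipecolate branch, AT5G52810 had 11.8 and 10.8 CPM in EXS34, 7.44 and 7.98 CPM in EXS32, 14.4 and 10.9 CPM in KO, and 14.6 and 19.5 CPM in Compl (EXS32 against Compl -1.16 ± 0.20, adjusted p = 0.0135). It overlaps AT5G52800 on the same strand, so its count is uncertain. FMO1 had 8.44 and 13.8 CPM in EXS34, 6.20 and 5.56 CPM in EXS32, 10.2 and 10.2 CPM in KO, and 11.2 and 13.2 CPM in Compl (-1.06 ± 0.24, adjusted p = 0.0308 for EXS32 against Compl). The EXS32 libraries were the lowest of the 8 in both genes. In the NPR group, NPR3 had 19.9 and 18.6 CPM in EXS34, 11.0 and 11.9 CPM in EXS32, 28.7 and 18.5 CPM in KO, and 24.4 and 24.7 CPM in Compl (-1.11 ± 0.19, adjusted p = 0.0149). NIMIN2, a small protein that binds NPR1, had 2.48 and 2.44 CPM in EXS34, 0.902 and 1.09 CPM in EXS32, 3.67 and 2.63 CPM in KO, and 2.59 and 3.83 CPM in Compl (-1.70 ± 0.31, adjusted p = 0.017). NPR1 had 42.9 and 35.7 CPM in EXS34, 50.2 and 55.3 CPM in EXS32, 46.7 and 39.5 CPM in KO, and 45.3 and 37.7 CPM in Compl and was not called. WRKY60, which works with WRKY18 and WRKY40, had 2.80 and 4.35 CPM in EXS34, 1.62 and 1.57 CPM in EXS32, 4.42 and 2.91 CPM in KO, and 3.84 and 3.53 CPM in Compl (-1.22 ± 0.31, adjusted p = 0.0433). In NPR3, NIMIN2 and WRKY60 the EXS32 libraries were again the lowest pair.

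EDS1 had 45.3 and 44.8 CPM in EXS34, 35.5 and 41.3 CPM in EXS32, 47.8 and 39.2 CPM in KO, and 43.0 and 48.8 CPM in Compl. PAD4 had 20.7 and 22.4 CPM in EXS34, 18.3 and 22.5 CPM in EXS32, 29.3 and 21.0 CPM in KO, and 30.5 and 32.2 CPM in Compl. None of EDS1, PAD4, SAG101 and NDR1 was called in any root comparison, and PAD4 was above 30 CPM in Compl and under 30 CPM elsewhere.

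The mutant without a transgene differed from Compl in 1 member. PBS3 was lower in KO (log2 fold change -2.26 ± 0.37, adjusted p = 0.0482), 1 of 33 or 3.03% of the members, with 0.884% of all genes called, 0.466% higher and 0.418% lower. The median was -0.05 for the members and -0.01 for all genes. The count was 0 without KO replicate 1, KO replicate 2 or Compl replicate 1, and 2 without Compl replicate 2. The adjusted p of PBS3 was 0.199 to 0.222 without 1 KO library.

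EXS34 against Compl had no member called, with 0.131% of all genes called, 0.0825% higher and 0.0486% lower. Unadjusted, 9 members (27.3%) had p under 0.05, against 14.4% of all genes, and DESeq2 called 6 members and 3.24% of all genes. PBS3 came closest (-3.15 ± 0.40, adjusted p = 0.0501), followed by DMR6 (-1.17 ± 0.19, adjusted p = 0.0823) and AZI1 (1.91 ± 0.32, adjusted p = 0.0838). Without Compl replicate 2 the count was 2. The comparisons with Compl share the Compl libraries. For PBS3, the log2 fold changes against Compl were -3.15 ± 0.40 in EXS34, -2.66 ± 0.39 in EXS32 and -2.26 ± 0.37 in KO. For DLO1 they were -1.44 ± 0.26, -2.48 ± 0.27 and -1.09 ± 0.25 in the same order, and for CBP60g -1.68 ± 0.38, -0.96 ± 0.37 and -0.84 ± 0.37.

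Between the EXS lines, EDS5 and AZI1 were higher in EXS34 than in EXS32, 2 of 33 or 6.06%, with 0.908% of all genes called, 0.578% higher and 0.330% lower. AZI1 had 5.43 and 9.27 CPM in EXS34, 1.65 and 1.98 CPM in EXS32, 3.29 and 2.30 CPM in KO, and 1.81 and 2.06 CPM in Compl, so that EXS34 was highest (2.02 ± 0.32, adjusted p = 0.0452). Without any of the 4 libraries compared the count was 0, and the DESeq2 test gave 7, with 5.37% of all genes called. EXS32 against KO had no member called (0.126% of all genes, 0.0243% higher and 0.102% lower), 16 (48.5%) with unadjusted p under 0.05, against 11.5% of all genes, and 8 by DESeq2, which called 2.66% of all genes. The lowest p values belonged to EDS5 (-0.98 ± 0.12, adjusted p = 0.0503), NIMIN2 (-1.65 ± 0.31, adjusted p = 0.106) and NPR3 (-1.04 ± 0.19, adjusted p = 0.106). EXS34 against KO had no member called and 0% of all genes, with 9 members (27.3%) at an unadjusted p under 0.05, against 9.08% of all genes, and 2 by DESeq2, which called 0.486% of all genes. The lowest p values belonged to AZI1 (1.404 ± 0.31, adjusted p = 0.436), DMR6 (-0.77 ± 0.19, adjusted p = 0.455) and WRKY70 (-1.27 ± 0.33, adjusted p = 0.455).

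**Figure D3:**
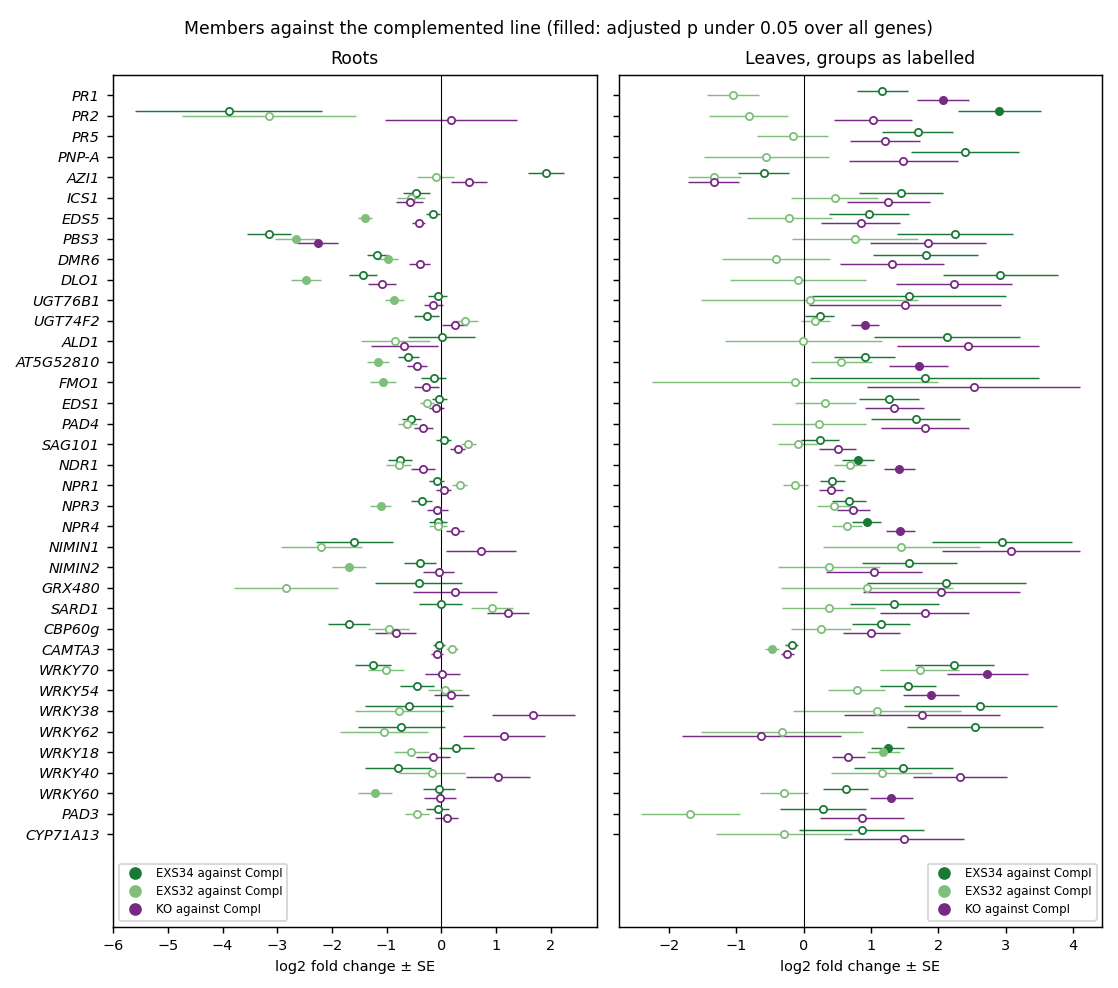
Log2 fold change with its standard error of each tested member against Compl, in roots on the left and in leaves as labelled on the right, for EXS34, EXS32 and KO. Filled points had an adjusted p under 0.05. In roots most filled points belong to EXS32 and lie below 0. In leaves most belong to the libraries labelled KO and lie above 0, and by file names these compare Compl with EXS32.

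In leaves all 37 members passed the filter. Every leaf comparison called more members when the replicate number entered the fit as a block, with counts in the closing section. The share of all genes called with the block is not given here, so that rise is not shown to be particular to the members. The leaf counts here are without that block. The libraries labelled KO had higher levels than those labelled Compl, which by file names is Compl against EXS32. There 8 members were higher and none lower, 21.6% of 37, while 10.5% of all 18548 genes were higher and 10.6% lower. The median log2 fold change was 1.42 for the members and -0.02 for all genes. In 31 of 37 members (83.8%) both libraries labelled KO lay above both labelled Compl, against 34.04% of all genes tested, and in 2 both lay below, against 35.01%. Replicate 2 labelled Compl was the lowest leaf library for 21 members. The 8 are the output PR1, the glucosyltransferase UGT74F2, AT5G52810, NDR1, NPR4, and WRKY70, WRKY54 and WRKY60. Leaving out libraries labelled KO gave 4 without replicate 1 and 3 without replicate 2, and libraries labelled Compl gave 5 without replicate 1 and 2 without replicate 2. DESeq2 called 15 and 15.004% of all genes.

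The PR1 levels put both libraries labelled KO over the other 6 (log2 fold change 2.07 ± 0.39, adjusted p = 0.0175 for those labelled KO against those labelled Compl). WRKY70, a regulator that is induced by salicylate and limits its accumulation, had 315 and 144 CPM in libraries labelled EXS34, 204 and 116 CPM in those labelled EXS32, 312 and 336 CPM in those labelled KO, and 70.0 and 27.0 CPM in those labelled Compl (2.72 ± 0.60, adjusted p = 0.0289). Its close relative WRKY54 had 83.04 and 48.2 CPM in libraries labelled EXS34, 46.0 and 31.3 CPM in those labelled EXS32, 89.5 and 78.4 CPM in those labelled KO, and 29.9 and 14.7 CPM in those labelled Compl (1.89 ± 0.42, adjusted p = 0.0292). WRKY60 had 13.2 and 7.36 CPM in libraries labelled EXS34, 5.75 and 5.16 CPM in those labelled EXS32, 18.5 and 14.8 CPM in those labelled KO, and 8.55 and 4.77 CPM in those labelled Compl (1.30 ± 0.32, adjusted p = 0.0227). In all 3 WRKY genes the libraries labelled Compl lay under those labelled KO. Those labelled Compl overlapped those labelled EXS32 in WRKY60 and lay under them in WRKY70 and WRKY54.

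NPR4 had 61.6 and 41.4 CPM in libraries labelled EXS34, 49.4 and 34.8 CPM in those labelled EXS32, 74.8 and 71.8 CPM in those labelled KO, and 28.4 and 25.5 CPM in those labelled Compl (1.43 ± 0.22, adjusted p = 0.00366). NDR1, a membrane protein required by several immune receptors, had 21.2 and 17.1 CPM in libraries labelled EXS34, 21.96 and 13.3 CPM in those labelled EXS32, 31.3 and 27.8 CPM in those labelled KO, and 11.97 and 9.92 CPM in those labelled Compl (1.42 ± 0.23, adjusted p = 0.00331). For NPR4 and NDR1 the call of those labelled KO against those labelled Compl held in all 11 other settings tried. UGT74F2 had 37.9 and 42.1 CPM in libraries labelled EXS34, 39.9 and 35.8 CPM in those labelled EXS32, 78.0 and 49.4 CPM in those labelled KO, and 30.6 and 37.2 CPM in those labelled Compl (0.91 ± 0.21, adjusted p = 0.0199). AT5G52810 had 42.2 and 20.5 CPM in libraries labelled EXS34, 30.2 and 19.5 CPM in those labelled EXS32, 60.4 and 50.6 CPM in those labelled KO, and 21.3 and 12.2 CPM in those labelled Compl (1.71 ± 0.44, adjusted p = 0.0449). In NPR4, NDR1 and AT5G52810 the libraries labelled KO were the highest and those labelled Compl the lowest or near it.

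**Figure D4:**
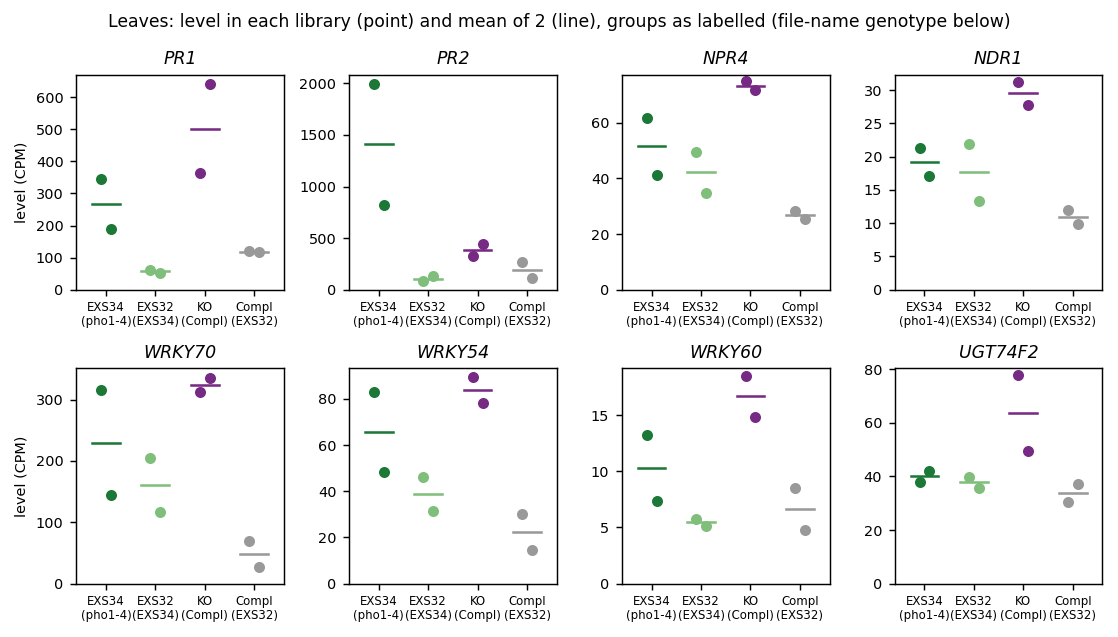
Level in CPM of 8 members in each leaf library, with points for the 2 replicates and a line for their mean; groups are as labelled, with the genotype of the file name in brackets below. PR1 reaches 363 and 641 CPM in libraries labelled KO, and in those labelled EXS34 PR2 reaches 1989 and 825 CPM.

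The libraries labelled EXS34 against those labelled Compl, by file names pho1-4 against EXS32, had 4 members higher and none lower, 10.8% of 37, with 9.54% of all genes higher and 8.80% lower. The median was 1.44 for the members and 0.001 for all genes. PR2 was higher (2.90 ± 0.61, adjusted p = 0.0298), together with NPR4 (0.94 ± 0.22, adjusted p = 0.0258), NDR1 (0.81 ± 0.24, adjusted p = 0.0462) and WRKY18 (1.25 ± 0.24, adjusted p = 0.0165). WRKY18 had 116 and 79.8 CPM in libraries labelled EXS34, 90.0 and 96.5 CPM in those labelled EXS32, 72.9 and 58.5 CPM in those labelled KO, and 49.6 and 32.7 CPM in those labelled Compl. The libraries labelled Compl were the lowest in WRKY18 and NPR4. Leaving out Compl replicate 1 gave 1, leaving out Compl replicate 2 gave 0, and the count was 1 without EXS34 replicate 1 and 6 without EXS34 replicate 2; DESeq2 called 13, with 12.7% of all genes.

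The libraries labelled EXS32 against those labelled Compl, by file names EXS34 against EXS32, had WRKY18 higher (1.18 ± 0.24, adjusted p = 0.0216) and CAMTA3 lower (-0.47 ± 0.10, adjusted p = 0.0146), with 14.8% of all genes called, 8.34% higher and 6.51% lower. CAMTA3 had 114 and 98.9 CPM in libraries labelled EXS34, 91.1 and 81.8 CPM in those labelled EXS32, 106 and 98.7 CPM in those labelled KO, and 123 and 117 CPM in those labelled Compl. It overlaps AT2G22310 on the opposite strand and is uncertain on that account. The 2 called members are 5.41% of 37, and the median was 0.17 for the members. Both libraries labelled EXS32 lay above both labelled Compl in 6 members (16.2%), against 28.1% of all genes. They lay below in 4 (10.8%), against 31.25%. Leaving out Compl replicate 2 gave 0, and leaving out any of the other 3 libraries gave 1.

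The libraries labelled EXS34 against those labelled EXS32, by file names pho1-4 against EXS34, had PR1 (2.21 ± 0.40, adjusted p = 0.0395) and PR2 (3.72 ± 0.64, adjusted p = 0.0354) higher. These are 5.41% of 37, with 5.69% of all genes called, 2.26% higher and 3.43% lower. All 37 log2 fold changes were positive, with a median of 1.15 against 0.01 for all genes, and in 14 members (37.8%) both libraries labelled EXS34 lay above both labelled EXS32, against 25.1% of all genes. The count was 0 without EXS32 replicate 1, EXS32 replicate 2 or EXS34 replicate 1, and 5 without EXS34 replicate 2.

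The libraries labelled EXS32 against those labelled KO, by file names EXS34 against Compl, had PR1 (-3.12 ± 0.41, adjusted p = 0.0186) and WRKY60 (-1.60 ± 0.33, adjusted p = 0.0303) lower, 5.41% of 37, with 5.93% of all genes called, 3.52% higher and 2.41% lower. The median was -1.10 for the members and 0.01 for all genes, and in 31 members (83.8%) both libraries labelled EXS32 lay below both labelled KO, against 29.5% of all genes. The count was 0 without KO replicate 1 or EXS32 replicate 2 and 1 without KO replicate 2 or EXS32 replicate 1. The libraries labelled EXS34 against those labelled KO, by file names pho1-4 against Compl, had no member called without the replicate block. Of all genes 6.41% were called, 3.27% higher and 3.14% lower. Both libraries labelled EXS34 lay above both labelled KO in 3 members (8.11%), against 27.85% of all genes. They lay below in 7 (18.9%), against 27.7%. Unadjusted, 6 members (16.2%) had p under 0.05, against 23.4% of all genes, and DESeq2 called 1 member and 5.31% of all genes. The count was 1 without KO replicate 2 or EXS34 replicate 1. The lowest p values belonged to UGT74F2 (-0.67 ± 0.21, adjusted p = 0.0977), NDR1 (-0.61 ± 0.21, adjusted p = 0.128) and PR2 (1.87 ± 0.58, adjusted p = 0.133).

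The remaining leaf members named for both organs were not called in leaves. ICS1 had 72.7 and 24.0 CPM in libraries labelled EXS34, 34.5 and 14.9 CPM in those labelled EXS32, 43.7 and 42.8 CPM in those labelled KO, and 20.6 and 15.2 CPM in those labelled Compl. EDS1 had 136 and 61.1 CPM in libraries labelled EXS34, 61.3 and 41.3 CPM in those labelled EXS32, 101 and 109 CPM in those labelled KO, and 50.5 and 31.7 CPM in those labelled Compl. PAD4, the partner of EDS1, had 85.2 and 28.6 CPM in libraries labelled EXS34, 29.9 and 12.5 CPM in those labelled EXS32, 58.7 and 67.9 CPM in those labelled KO, and 23.2 and 12.6 CPM in those labelled Compl. In these 3 genes replicate 1 was above replicate 2 in the groups labelled EXS34, EXS32 and Compl. FMO1 had 4.54 and 0.482 CPM in libraries labelled EXS34, 1.17 and 0.215 CPM in those labelled EXS32, 7.86 and 0.786 CPM in those labelled KO, and 1.28 and 0.129 CPM in those labelled Compl. NPR1 had 84.3 and 59.7 CPM in libraries labelled EXS34, 54.6 and 43.3 CPM in those labelled EXS32, 76.1 and 66.5 CPM in those labelled KO, and 58.2 and 49.1 CPM in those labelled Compl. In ICS1, EDS1, PAD4 and NPR1 the highest library was replicate 1 labelled EXS34, and in FMO1 it was replicate 1 labelled KO.

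The replicates of a leaf group differed across many members at once. Replicate 1 was the higher of the pair for 36 of 37 members under the label EXS34, 34 under EXS32, 23 under KO and 36 under Compl. The median log2 ratio of replicate 1 to replicate 2, after adding 0.5 CPM, was 1.22, 0.76, 0.10 and 0.85 in the same order. The summed level of the 37 members was 5177 and 2328 CPM in the libraries labelled EXS34, 1388 and 1041 CPM in those labelled EXS32, 2749 and 3121 CPM in those labelled KO, and 1478 and 891 CPM in those labelled Compl. Replicate 1 labelled EXS34 was the highest of the 8 leaf libraries for 23 members (62.2%), against 13.0% of the 18147 genes that average 1 CPM or more. Replicate 2 labelled Compl was the lowest for 21 members (56.8%), against 16.02% of those genes. In roots the summed level was 631 and 592 CPM in EXS34, 554 and 648 CPM in EXS32, 846 and 608 CPM in KO, and 759 and 779.5 CPM in Compl. Root KO replicate 1 was the highest of 8 for 12 of 33 members (36.4%), against 8.74% of 18990 genes. What sets replicates of a group apart is not given by the labels and was not tested.

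**Figure D5:**
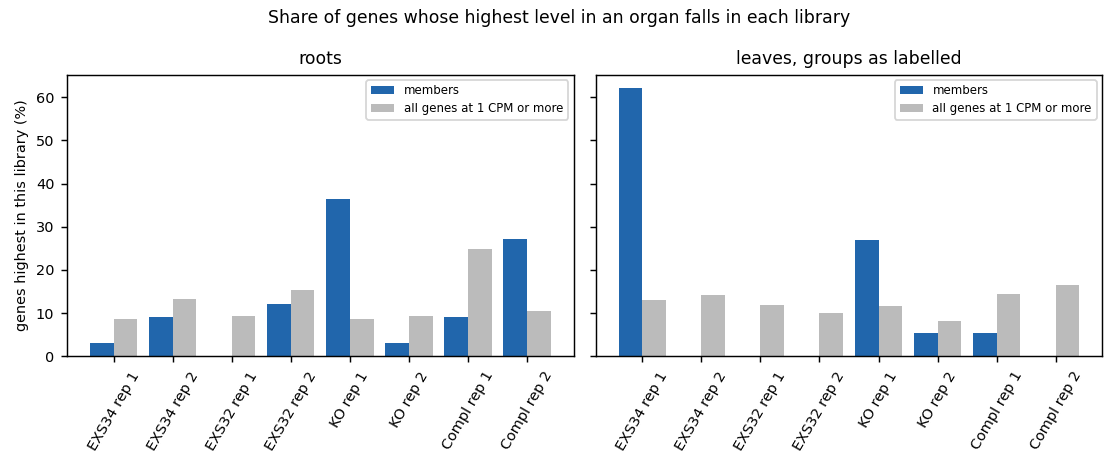
Share of genes, in percent, whose highest level in an organ falls in each library, for the members (left bar of each pair; 33 in roots, 37 in leaves) and for all genes that average 1 CPM or more in that organ (right bar). Replicate 1 labelled EXS34 holds 62.2% of the leaf members, and KO replicate 1 holds 36.4% of the root members.

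By file names the leaf libraries labelled KO and Compl are Compl and EXS32, so the 8 members higher in those labelled KO are lower in EXS32 leaves than in Compl leaves, and the 10 root members are lower in EXS32 roots than in Compl roots. AT5G52810 and WRKY60 are in both lists, 20% of the root list and 25% of the leaf list. The overlap expected by chance was not computed, so these shares do not show a common effect of EXS32 in both organs. Roots and leaves share no library in this comparison.

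By role, the 8 calls in leaves labelled KO against those labelled Compl included 3 of 7 WRKY genes. The others were NDR1 and 1 each of 5 outputs, 4 turnover genes, 3 pipecolate genes and 6 NPR genes. None of EDS1, PAD4 and SAG101, which were listed with NDR1, was called there (adjusted p = 0.0896, 0.115 and 0.236). In roots of EXS32 against Compl the 10 calls were 2 of 3 synthesis genes, 3 of 4 turnover genes, 2 of 3 pipecolate genes, 2 of 6 NPR genes and 1 of 7 WRKY genes. In the same comparisons 10.5% of all genes were higher in leaves and 7.27% lower in roots. None of the regulators SARD1, CBP60g and CAMTA3 was called in either.

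Several members called in 1 organ spread widely in the other. PBS3 in leaves had 51.1 and 11.5 CPM in libraries labelled EXS34, 16.6 and 6.13 CPM in those labelled EXS32, 24.7 and 23.5 CPM in those labelled KO, and 9.09 and 3.99 CPM in those labelled Compl. DLO1 in leaves had 76.1 and 23.2 CPM in libraries labelled EXS34, 7.75 and 4.73 CPM in those labelled EXS32, 21.0 and 41.8 CPM in those labelled KO, and 10.4 and 2.45 CPM in those labelled Compl. Both were highest in replicate 1 labelled EXS34 and lowest in replicate 2 labelled Compl, and neither was called in leaves. EDS5 ranged from 14.8 to 44.3 CPM with a median of 32.4 in roots, and 9.57 to 45.2 CPM with a median of 17.8 in leaves. DMR6 ranged from 30.4 to 85.9 CPM with a median of 48.4 in roots, and 22.9 to 295 CPM with a median of 93.3 in leaves. NIMIN2 ranged from 0.902 to 3.83 CPM with a median of 2.53 in roots, and 2.58 to 22.4 CPM with a median of 9.81 in leaves. These 3 overlapped between organs, NIMIN2 only at the low end of its leaf range. NPR3, a salicylate-binding repressor, ranged from 11.0 to 28.7 CPM with a median of 19.2 in roots, and 39.4 to 87.5 CPM with a median of 61.6 in leaves, with no overlap. WRKY70 in roots had 8.09 and 4.95 CPM in EXS34, 6.28 and 9.03 CPM in EXS32, 20.2 and 11.4 CPM in KO, and 15.6 and 15.2 CPM in Compl. The KO and Compl libraries thus lay above those of both EXS lines. NDR1 in roots had 7.41 and 9.84 CPM in EXS34, 7.63 and 9.41 CPM in EXS32, 13.5 and 9.88 CPM in KO, and 12.9 and 16.1 CPM in Compl, with the same order.  NPR4 ranged from 22.4 to 35.6 CPM with a median of 28.01 in roots, and 25.5 to 74.8 CPM with a median of 45.4 in leaves. UGT74F2 ranged from 52.4 to 107 CPM with a median of 69.4 in roots, and 30.6 to 78.0 CPM with a median of 38.9 in leaves. WRKY54 ranged from 15.4 to 31.3 CPM with a median of 19.0 in roots, and 14.7 to 89.5 CPM with a median of 47.1 in leaves, and WRKY18, which did not overlap, from 4.47 to 9.42 CPM with a median of 7.19 in roots, and 32.7 to 116 CPM with a median of 76.3 in leaves. CAMTA3 ranged from 76.4 to 101 CPM with a median of 88.2 in roots, and 81.8 to 123 CPM with a median of 102 in leaves. Its ratio of highest to lowest level within an organ was the smallest of these members.

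The remaining members were called in no genotype comparison. SAG101, the other partner of EDS1, ranged from 14.7 to 23.8 CPM with a median of 18.0 in roots, and 23.2 to 42.2 CPM with a median of 31.1 in leaves. NIMIN1, which binds NPR1, ranged from 0.376 to 7.51 CPM with a median of 1.46 in roots, and 0.644 to 21.3 CPM with a median of 6.29 in leaves. GRX480, a glutaredoxin that binds TGA factors, ranged from 0.113 to 4.16 CPM with a median of 1.47 in roots, and 0 to 18.4 CPM with a median of 7.06 in leaves. These 3 were lower in roots than in leaves by the test, a call lost for SAG101 with library size alone (adjusted p = 0.118) and for NIMIN1 (0.059) and GRX480 (0.936) without leaf replicate 1 labelled Compl. SARD1 ranged from 3.103 to 11.5 CPM with a median of 4.55 in roots, and 17.5 to 94.0 CPM with a median of 39.4 in leaves, and its locus overlaps AT1G73790. CBP60g ranged from 9.58 to 44.8 CPM with a median of 18.8 in roots, and 15.3 to 54.9 CPM with a median of 26.4 in leaves. ALD1 ranged from 1.396 to 5.71 CPM with a median of 2.39 in roots, and 0.129 to 9.85 CPM with a median of 2.49 in leaves. Of these regulators and the pipecolate enzyme, SARD1 alone was lower in roots. WRKY38 ranged from 0.939 to 10.7 CPM with a median of 1.44 in roots, and 0.644 to 29.9 CPM with a median of 7.96 in leaves. WRKY62 ranged from 0.451 to 8.26 CPM with a median of 1.67 in roots, and 0.753 to 37.8 CPM with a median of 4.64 in leaves. WRKY40 ranged from 3.94 to 23.6 CPM with a median of 5.97 in roots, and 3.09 to 27.2 CPM with a median of 11.3 in leaves, and its locus overlaps AT1G80850. The libraries of both organs overlapped in all 3 WRKY genes. By the test WRKY38 (-1.88 ± 0.52, adjusted p = 0.0054) and WRKY62 (-1.48 ± 0.51, adjusted p = 0.0187) were lower in roots, and WRKY40 was not called (adjusted p = 0.128). The call was lost in 1 of 21 other settings for WRKY38 and in 4 of 21 for WRKY62. PAD3 ranged from 10.9 to 18.1 CPM with a median of 14.2 in roots, and 5.27 to 51.0 CPM with a median of 24.7 in leaves, with overlap between organs.

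The effect of a genotype was also compared between roots and leaves as labelled, in 1 fit of all 16 libraries. By file names, a labelled leaf pair holds other genotypes than the root pair of the same name. By labels the effect differed in 7 of 37 members for KO against Compl (13.4% of all genes) and in 7 for EXS32 against Compl (16.3%). It differed in 6 for EXS34 against Compl (6.34%) and in 1 for EXS34 against EXS32 (6.78%). It differed in none for EXS32 against KO (1.55%) and in none for EXS34 against KO (1.74%). For PBS3 the KO against Compl difference was -2.26 ± 0.37 in roots and 1.85 ± 0.86 in leaves as labelled. The leaf value was not called (adjusted p = 0.195). By file names the leaf pair is the libraries labelled EXS34 against those labelled KO, with 0.40 ± 0.74 for PBS3 (adjusted p = 0.797). With leaf genotypes taken from file names the counts were 0, 3, 0, 1, 0 and 0 in the same order, and the shares of all genes called were 1.61%, 8.26%, 0.871%, 1.64%, 2.55% and 0.0609%.

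Other genes of the pathway, not members, were followed as lists. In roots of EXS32 against Compl, 7.27% of all genes were lower and 5.10% higher. There 3 of 8 other salicylate pathway genes were lower and none higher (median -0.81). They include PAL1 (-0.99 ± 0.10, adjusted p = 0.00397) and PAL4 (-1.09 ± 0.17, adjusted p = 0.0111), phenylalanine ammonia-lyases of the alternative route to salicylate. Of 7 pattern-triggered and systemic outputs 3 were lower, among them CYP71A12 (-3.41 ± 0.55, adjusted p = 0.0125). It is a near relative of CYP71A13, and reads that aligned to both were dropped as multiply aligned. Of 12 immune receptors and helpers 1 was lower, of 8 TGA and other NPR genes 1, of 4 other immune WRKY genes 1, and of 5 jasmonate outputs 2. In the other root comparisons none of these lists had a gene called. Of the 9 phosphate starvation genes 7 were higher in EXS32 roots than in Compl roots. In KO roots 6 of the 9 were higher than in Compl roots, against 0.466% of all genes. Between organs, 43.1% of all genes were higher in roots and 38.4% lower. Of 9 other salicylate pathway genes 6 were higher in roots and 1 lower. Of 8 TGA and other NPR genes 6 were higher, among them TGA1 (4.42 ± 0.09, adjusted p = 4.2e-14), and 1 was lower. Of 13 receptors and helpers 9 were lower in roots and 1 higher.

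Leaves labelled KO against those labelled Compl are, by file names, Compl against EXS32. There 5 of 13 immune receptors and helpers were higher and 1 lower, with 10.5% of all genes higher and 10.6% lower. RBOHD, the oxidase of the immune oxidative burst, was higher (1.29 ± 0.11, adjusted p = 9.23e-05) and the flagellin receptor FLS2 lower (-1.24 ± 0.12, adjusted p = 0.000201). RBOHD had 145 and 142 CPM in libraries labelled EXS34, 136 and 134 CPM in those labelled EXS32, 149 and 149.8 CPM in those labelled KO, and 67.9 and 53.3 CPM in those labelled Compl. FLS2 had 33.9 and 32.3 CPM in libraries labelled EXS34, 37.0 and 28.8 CPM in those labelled EXS32, 40.4 and 37.0 CPM in those labelled KO, and 93.3 and 89.0 CPM in those labelled Compl, so in both genes the libraries labelled Compl stood apart from the other 6. Of 5 other immune WRKY genes 2 were higher, including WRKY33 (2.06 ± 0.29, adjusted p = 0.00495), and of 9 other salicylate pathway genes 1 was higher and 1 lower. Of 8 pattern-triggered and systemic outputs 1 was lower and none higher, and of 8 TGA and other NPR genes 1 was higher and 1 lower. Of 7 jasmonate outputs 1 was higher. Leaves labelled EXS34 against those labelled KO are, by file names, pho1-4 against Compl, with 3.27% of all genes higher and 3.14% lower. There 3 of 8 pattern-triggered and systemic outputs were higher, among them the chitinase PR3 (1.97 ± 0.19, adjusted p = 0.00134). Of 9 phosphate starvation genes 9 were higher (median 4.26). Of 5 leaf senescence genes tested there, none was called.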

How the data were processed

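The authors deposited raw counts of reads per gene, 1 file for each stranded mRNA library, covering 32678 loci. The submitters' processing notes name TAIR10, the aligner TopHat2 2.0.9, the counter HTSeq 0.5.4p3, the trimmer cutadapt 1.2.1 and, for statistics, limma and edgeR under R 3.1.1; neither their settings nor the strand setting of the counts are stated in those sources. The closing lines of each file that name no gene, 8.57 to 10.3% of reads in roots and 7.26 to 7.77% in leaves, were dropped. Multiply aligned reads were among them, which lowers the counts of near-identical copies.

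The 37 members, the other gene lists and the promoter motifs were chosen with earlier results of these data known. Groups follow the labels and replicate numbers the titles, since the descriptions of all EXS34 samples give the number 1. Per organ the 8 libraries entered 1 fit in edgeR 4.0.16 under R 4.3.3 (filterByExpr with minimum count 10 and minimum total 15, TMM, robust quasi-likelihood test, no block), with 20597 genes in roots and 18548 in leaves. Organs and interactions were fitted on all 16 libraries (21351 genes). A standard error is the size of the log2 fold change over the root of its F statistic. The test was checked on simulated counts. Alternatives were DESeq2 1.42.0, its size factors, library size alone, no filter, other sets of libraries, a replicate block, and each library left out. By rule the text names called members (up to 10 per comparison by adjusted p, or the 3 with the lowest p where none was called), 8 members in both organs, and up to 4 called genes of other lists; further members stand by role, and their levels were known. Symbols and promoter windows came from RefSeq TAIR10.1, in which AT5G52810 has no symbol. Figures used matplotlib 3.10.9.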

Additional observations from a re-analysis of the deposited data

Results flagged for a closer look

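The difference between roots and leaves in the effect of genotype was tested as an interaction in 1 edgeR fit of all 16 libraries. Each value below is the root log2 fold change minus the leaf log2 fold change. If the file names are right, the values by labels subtract a leaf pair of other genotypes than the root pair. With leaves as labelled, EXS32 against Compl differed in 7 of 37 members, NPR3 (-1.54, adjusted p = 0.0104), CAMTA3 (0.68, adjusted p = 0.0111), NDR1 (-1.45, adjusted p = 0.0174), WRKY70 (-2.72, adjusted p = 0.0233), WRKY18 (-1.71, adjusted p = 0.0233), AT5G52810 (-1.70, adjusted p = 0.0351), PBS3 (-3.41, adjusted p = 0.0381), with 16.3% of all genes called. EXS34 against Compl differed in 6 members, PBS3 (-5.39, adjusted p = 0.0115), DLO1 (-4.35, adjusted p = 0.0163), WRKY70 (-3.48, adjusted p = 0.0179), AZI1 (2.51, adjusted p = 0.0193), CBP60g (-2.82, adjusted p = 0.0222), NDR1 (-1.56, adjusted p = 0.0259), with 6.34% of all genes called. EXS34 against EXS32 differed in NPR1 (-0.98, adjusted p = 0.0396), with 6.78% of all genes called. KO against Compl differed in 7 members, NDR1 (-1.74, adjusted p = 0.00826), AT5G52810 (-2.15, adjusted p = 0.0135), PBS3 (-4.10, adjusted p = 0.0168), NPR4 (-1.18, adjusted p = 0.0224), WRKY70 (-2.69, adjusted p = 0.0266), DLO1 (-3.32, adjusted p = 0.028), AZI1 (1.85, adjusted p = 0.0436), with 13.4% of all genes called. EXS32 against KO and EXS34 against KO had none, with lowest adjusted p values of 0.121 and 0.102.

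With leaves named by their files, EXS32 against Compl differed in 3 members, NPR4 (1.38, adjusted p = 0.0147), UGT74F2 (1.36, adjusted p = 0.0326), WRKY54 (1.98, adjusted p = 0.0474), with 8.26% of all genes called, and EXS34 against EXS32 differed in AZI1 (3.35, adjusted p = 0.0118), with 1.64% of all genes called. The other 4 comparisons then had none, with 0.0609 to 2.55% of all genes called and lowest adjusted p values of 0.137 to 0.179. Which members were called thus differed between the namings, which were not reconciled.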

How the results depend on the processing

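Of 63 called values of single members, tried under 1013 alternatives in all, 863 kept the call, 148 kept the direction and lost the call, and 2 changed sign. Those 2 are NPR1 (0.093, adjusted p = 0.309) and CAMTA3 (0.34, adjusted p = 2.21e-05) in roots against leaves with library size alone. EDS5 in roots of EXS32 against Compl, and NDR1 and NPR4 in leaves labelled KO against Compl, were called in all 11 alternatives. The causes of the moved counts were not tested. Labels name the leaf groups.

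Counts of members called moved as follows. Where no share of all genes stands beside a count, here or with a library left out, the count is not set against its background. Such a count is not a result about the members. The replicate number as a block gave, in roots, 0 for KO against Compl, 1 for EXS32 against KO and 1 for EXS34 against EXS32. In leaves the block gave 20 for KO against Compl, 13 for EXS32 against KO, 9 for EXS34 against KO, 9 for EXS32 against Compl, 15 for EXS34 against Compl and 9 for EXS34 against EXS32. The labels do not say whether libraries with the same number share more than that number. Their deviations correlated at -0.25 to 0.22 in roots and 0.04 to 0.33 in leaves. Whether replicate 1 and replicate 2 differ by a shared condition was not tested.

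DESeq2 gave, in roots, 3 for KO against Compl (6.23% of all genes), 8 for EXS32 against KO (2.66%) and 2 for EXS34 against KO (0.486%). It gave 17 for EXS32 against Compl (16.5%), 6 for EXS34 against Compl (3.24%) and 7 for EXS34 against EXS32 (5.37%). In leaves it gave 15, 6, 1, 4, 13 and 5 for the same pairs in that order. Only the 4 libraries compared gave, in roots, 0 for KO against Compl and 4 for EXS32 against KO, and in leaves 17 for KO against Compl, 13 for EXS32 against KO, 5 for EXS32 against Compl, 2 for EXS34 against Compl and 0 for EXS34 against EXS32. All 16 libraries in 1 fit gave, in roots, 0 for KO against Compl, 1 for EXS34 against Compl and 1 for EXS34 against EXS32, and in leaves 14 for KO against Compl, 4 for EXS32 against Compl, 11 for EXS34 against Compl and 4 for EXS34 against EXS32. No filter gave 1 for EXS32 against KO and 1 for EXS34 against Compl in roots, and 5 for KO against Compl and 0 for EXS34 against EXS32 in leaves. In roots against leaves, library size alone also ended the calls of DLO1, DMR6, NDR1, WRKY62 and PAD3. Library size alone gave 1 for EXS32 against KO in roots and 1 for EXS34 against EXS32 in leaves. Interactions with leaves named by file names gave 0 for KO against Compl, 3 for EXS32 against Compl and 0 for EXS34 against Compl.

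Leaving out 1 library gave, in roots, 0 to 2 for KO against Compl, 0 for EXS32 against KO, 0 for EXS34 against KO, 1 to 9 for EXS32 against Compl, 0 to 2 for EXS34 against Compl and 0 for EXS34 against EXS32. In leaves it gave 2 to 5, 0 to 1, 0 to 1, 0 to 1, 0 to 6 and 0 to 5 for the same pairs in that order, and for roots against leaves 27 to 35. Depth was lower in leaves than in roots, and each group had 2 libraries, which limits the precision of low members.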
